A study of Mus musculus with 6 samples.

Results

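Cone phototransduction was examined through 10 genes chosen by their role in the cascade: the opsins Opn1sw and Opn1mw, the arrestin Arr3, the transducin subunits Gnat2, Gnb3 and Gngt2, the phosphodiesterase subunits Pde6c and Pde6h and the channel subunits Cnga3 and Cngb3. All 10 were found by gene identifier among the 32285 genes of the count table. RNA came from retinas of wild-type C57BL/6J mouse pups at PN18 and was sequenced as 3 OIR-CIH and 3 OIR-Norm libraries. Both groups had gone through oxygen-induced retinopathy (OIR), in which pups breathe 75% O2 from PN8 to PN13 and the central retina loses its capillaries. The OIR-CIH pups were then exposed to chronic intermittent hypoxia (CIH), daily cycles in which O2 fell from 20.95% to 5%, and the OIR-Norm pups to the same gas flow at a constant O2. Both groups therefore carry the effects of OIR, and the libraries were made from whole retina.

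Cones are the photoreceptors of daylight and colour vision and a small minority of the cells in the mouse retina, where rods dominate. Light activates an opsin, the opsin activates the G protein transducin, transducin releases the brake on a phosphodiesterase that breaks down cGMP, and the fall in cGMP closes a cation channel in the outer segment membrane; arrestin ends the opsin's activity. Rods use the same chain with their own version of almost every component, which allows the cone genes to be compared with rod genes of the same role. Mouse cones carry a short-wavelength opsin, Opn1sw, and a middle-wavelength opsin, Opn1mw, and many cones make both, in proportions that vary from the dorsal to the ventral retina.

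The 250 bases before the start of the opsin genes are shown because the results turn on the balance of the 2 opsin transcripts. They are from RefSeq on GRCm38.p6, each 5′ to 3′ on the gene's strand, at chr6:29380514-29380763 (minus strand) for Opn1sw and chrX:74127216-74127465 (plus strand) for Opn1mw. Capitals mark matches to the nuclear receptor half-site AGGTCA, which reads TGACCT on the opposite strand, to the homeobox core TAATCC, which reads GGATTA there, and to its variant TAATCT, which reads AGATTA there.
Opn1sw: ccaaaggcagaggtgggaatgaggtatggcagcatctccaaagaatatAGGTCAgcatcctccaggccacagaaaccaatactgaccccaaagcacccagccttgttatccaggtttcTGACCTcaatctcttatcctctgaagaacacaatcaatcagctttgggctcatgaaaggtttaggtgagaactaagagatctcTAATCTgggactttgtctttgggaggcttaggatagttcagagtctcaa
Opn1mw: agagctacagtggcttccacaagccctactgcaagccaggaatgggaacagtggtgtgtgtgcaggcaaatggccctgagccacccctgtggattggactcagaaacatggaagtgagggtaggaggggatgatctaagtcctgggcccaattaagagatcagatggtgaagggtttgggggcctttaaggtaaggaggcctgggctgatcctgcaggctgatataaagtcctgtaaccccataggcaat
The Opn1sw window held the half-site AGGTCA at 2 places, 202 and 132 bases before the start and on opposite strands, and TAATCT 49 bases before the start. The Opn1mw window held none of these letters. Of 32851 promoter windows of the same length, 14% held AGGTCA and 1.36% held it at 2 or more places, 6.25% held TAATCC and 7.31% held TAATCT. The table had promoters for 6 of the 10 members. Among the other 4, Arr3 had TAATCT at 3 places (116, 102 and 10 bases before the start), which 0.0396% of all windows matched or exceeded, Gnat2 had TAATCC 19 bases before the start, and Pde6h and both entries of Cnga3 had no match. These matches describe the letters of the windows and nothing about what binds there.

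The total count per library was between 26289905 and 38010151. Values are given as CPM (the reads of a gene relative to all counted reads of its library, corrected for library composition), as mean ± SD over libraries, and were compared with edgeR's quasi-likelihood test over the 20021 genes whose counts summed to 10 or more. A gene was called at a Benjamini-Hochberg adjusted p under 0.05 with an absolute log2 fold change over 0.5, which 63 genes met, 43 lower and 20 higher in OIR-CIH, or 0.315% of those tested. The median log2 fold change of all genes tested was -0.00. Every library contained RNA of Xist and of Y-linked genes, although a single mouse would carry both only exceptionally and the study counts 3 eyes per group. So n counts libraries, and the number of animals behind them is not known. One library stood apart: the summed level of 14 lens genes was 869 CPM in OIR-Norm replicate 2 and between 79.0 and 170 CPM in the other 5. Cone and rod transcripts were abundant in every library, with the rod transducin subunit Gnat1 between 8429 and 11549 CPM. Since whole retina was sequenced, fewer cones and less RNA per cone cannot be told apart.

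None of the 10 cone genes was called by edgeR (0 of 10, against 0.315% of all genes), nor by DESeq2 or limma. Relative to OIR-Norm, 7 were higher and 3 lower in OIR-CIH. Their log2 fold changes ran from -0.30 to 0.20 around a median of 0.08. One, Opn1mw, had an unadjusted p under 0.05, as did 13.2% of all genes. The groups did not overlap for 2 of 10, Opn1mw and Cngb3, and for 18.4% of all genes. The summed level of the 10 genes was 2069 ± 160 CPM in OIR-CIH and 2008 ± 166 CPM in OIR-Norm (n = 3 each), a difference within the spread between libraries. The data measured these genes closely enough that, for every member except Opn1mw, the 95% interval of the log2 fold change lay inside ±0.5.

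**Figure D1:**
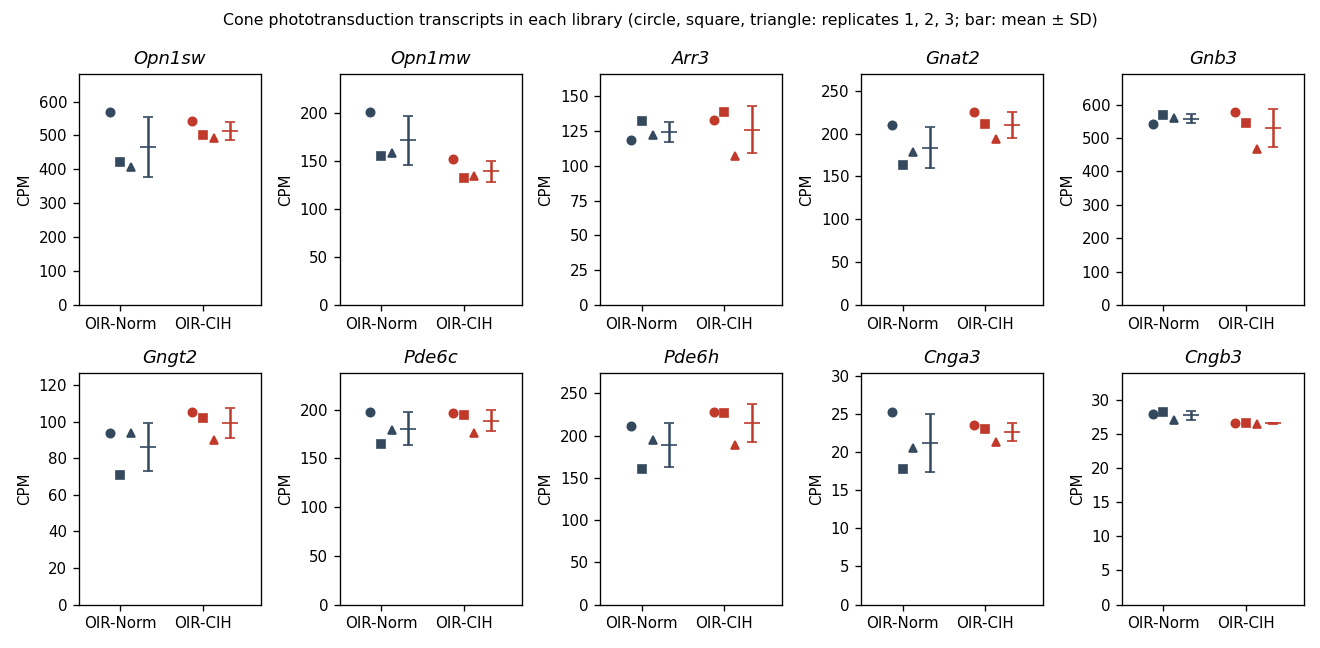
Level of each cone gene (CPM, each axis from 0) in the OIR-Norm (dark) and OIR-CIH (red) libraries, with circles, squares and triangles for replicates 1, 2 and 3 and bars for mean ± SD. Points of the groups are apart for Opn1mw and Cngb3, where all OIR-CIH libraries are lower, and overlap for the other 8 genes.

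Opn1mw, the middle-wavelength opsin, was measured at 152, 132 and 134 CPM in OIR-CIH replicates 1 to 3 and at 200, 155 and 158 CPM in OIR-Norm. Every OIR-CIH library was below every OIR-Norm library, with the closest values at 152 and 155 CPM. The mean was 139 ± 11 CPM against 171 ± 25.4 CPM, a log2 fold change of -0.30 (SE 0.10, 95% interval -0.52 to -0.08), with an unadjusted p of 0.0120 and an adjusted p of 0.277 by edgeR, so that it was not called. The size rested in part on OIR-Norm replicate 1, the highest library: without it the log2 fold change was -0.17 (edgeR, unadjusted p = 0.0644, adjusted p = 0.390). Opn1mw lies on the X chromosome, and with Y-linked RNA as a covariate the log2 fold change was -0.28.

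Opn1sw, the short-wavelength opsin, was measured at 543, 502 and 492 CPM in OIR-CIH and at 569, 423 and 408 CPM in OIR-Norm. The highest and the 2 lowest libraries were all OIR-Norm, and the groups overlapped. Its log2 fold change was 0.14 (SE 0.12, 95% interval -0.12 to 0.39, edgeR adjusted p = 0.668). The value rested on single OIR-Norm libraries: it was 0.30 without replicate 1 (edgeR unadjusted p = 0.00628, adjusted p = 0.196) and 0.05 without replicate 3 (edgeR adjusted p = 0.909). OIR-Norm replicate 1 was the highest library for both opsins.

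The balance of the opsins was steadier than the level of either. Opn1sw gave 78.2%, 79.2% and 78.6% of the reads on the 2 opsin genes in OIR-CIH and 73.9%, 73.2% and 72.1% in OIR-Norm. All OIR-CIH libraries were therefore above all OIR-Norm libraries, by 5.59 percentage points on average (78.7% ± 0.513 against 73.1% ± 0.926, n = 3 each). With 16476 to 23696 opsin reads per library, the 95% Wilson intervals, which cover counting error only, reached down to 77.5% in OIR-CIH and up to 74.5% in OIR-Norm. As a log2 ratio of counts within a library, which does not depend on how libraries are scaled, Opn1sw over Opn1mw was 1.839, 1.927 and 1.881 in OIR-CIH and 1.504, 1.447 and 1.369 in OIR-Norm. The difference was 0.44 on the log2 scale, a ratio 1.36-fold higher in OIR-CIH. By an exact permutation test, two-sided, p was 0.1, the smallest value this test can give with 3 against 3 libraries, so that it cannot pass 0.05. Leaving out any 1 library kept the difference between 0.41 and 0.47, including OIR-Norm replicate 1 (0.47).

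Set against the summed count of the other 8 members, Opn1mw was lower in every OIR-CIH library than in any OIR-Norm library, with a difference of -0.34 on the log2 scale (exact permutation p = 0.1). The same ratio for Opn1sw differed by 0.11 with overlapping groups (exact permutation p = 0.5). Without OIR-Norm replicate 1 the differences were -0.25 for Opn1mw and 0.23 for Opn1sw, of similar size, so that how the change in balance divides between the opsins rested on that library. Without OIR-Norm replicate 3 they were -0.39 and 0.01. This comparison was chosen after the data had been seen. About 14.1% of the 30-base stretches of the Opn1sw transcripts are shared with Calu, which overlaps it on the opposite strand. None of those of Opn1mw are shared with another gene. Whether the counting used the strand is not stated, so that how reads in the overlap entered the Opn1sw count is not known.

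**Figure D2:**
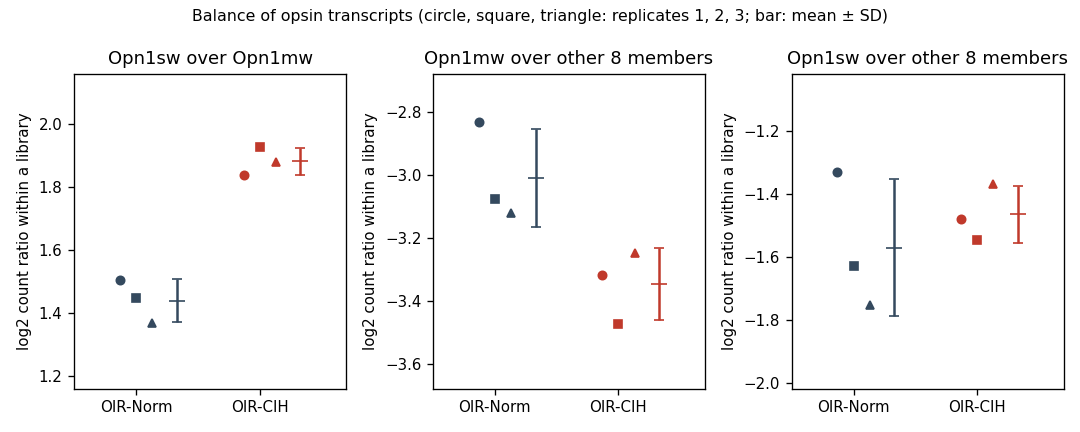
Log2 ratio of counts within each library for Opn1sw over Opn1mw, Opn1mw over the other 8 members and Opn1sw over the other 8 members, in OIR-Norm (dark) and OIR-CIH (red), with symbols for replicates, bars for mean ± SD and axes of equal length that do not start at 0. The groups are apart in the first 2 panels, 1.369 to 1.504 against 1.839 to 1.927 and -3.12 to -2.83 against -3.47 to -3.25, and overlap in the third.

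Arr3, the cone arrestin that quenches activated opsin, was measured at 133, 138 and 107 CPM in OIR-CIH and at 118, 132 and 122 CPM in OIR-Norm. The OIR-CIH libraries held both the highest and the lowest value. The log2 fold change was 0.02 (95% interval -0.19 to 0.23, edgeR adjusted p = 0.948), and its sign turned with the setting.

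Of the transducin subunits, Gnat2, the cone alpha subunit that binds GTP, was measured at 225, 211 and 194 CPM in OIR-CIH and at 210, 163 and 178 CPM in OIR-Norm. Gngt2, the cone gamma subunit, was at 106, 102 and 90.1 CPM against 93.6, 71.0 and 94.0 CPM. Both had overlapping groups, with log2 fold changes of 0.19 (95% interval -0.02 to 0.40, edgeR adjusted p = 0.422) and 0.20 (95% interval -0.02 to 0.43, edgeR adjusted p = 0.438). Without OIR-Norm replicate 2, their lowest library, these were 0.11 and 0.08. Gnb3, the beta subunit of cones, is also used by ON bipolar cells and was the most abundant member, at 577, 545 and 466 CPM against 543, 570 and 559 CPM. It differed by -0.07 on the log2 scale (95% interval -0.28 to 0.13, edgeR adjusted p = 0.782), and OIR-CIH replicate 3 alone was low. The transcripts of Gngt2 share 8.37% of their 30-base stretches with Abi3, which overlaps it on the opposite strand.

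Pde6c, the catalytic subunit of the cone phosphodiesterase, was measured at 196, 194 and 176 CPM in OIR-CIH and at 198, 165 and 179 CPM in OIR-Norm. Pde6h, the inhibitory gamma subunit that transducin displaces, was at 228, 227 and 189 CPM against 212, 160 and 195 CPM. The groups overlapped for both, and OIR-Norm replicate 2 was the lowest library for each. Their log2 fold changes were 0.06 (95% interval -0.12 to 0.25, edgeR adjusted p = 0.792) and 0.18 (95% interval -0.05 to 0.42, edgeR adjusted p = 0.496).

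The cGMP-gated channel subunits were the least abundant members. Cnga3, which forms the pore with its partner, was measured at 23.5, 23.1 and 21.4 CPM in OIR-CIH and at 25.3, 17.8 and 20.5 CPM in OIR-Norm, with overlapping groups and counts between 508 and 807 per library. Its log2 fold change was 0.09 (95% interval -0.17 to 0.36, edgeR adjusted p = 0.792). Cngb3, the modulatory subunit, was at 26.7, 26.6 and 26.5 CPM against 28.0, 28.3 and 27.0 CPM. All OIR-CIH libraries were lower, but by little, at a mean of 26.6 against 27.8 CPM, a log2 fold change of -0.06 (95% interval -0.24 to 0.11, edgeR adjusted p = 0.784).

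**Figure D3:**
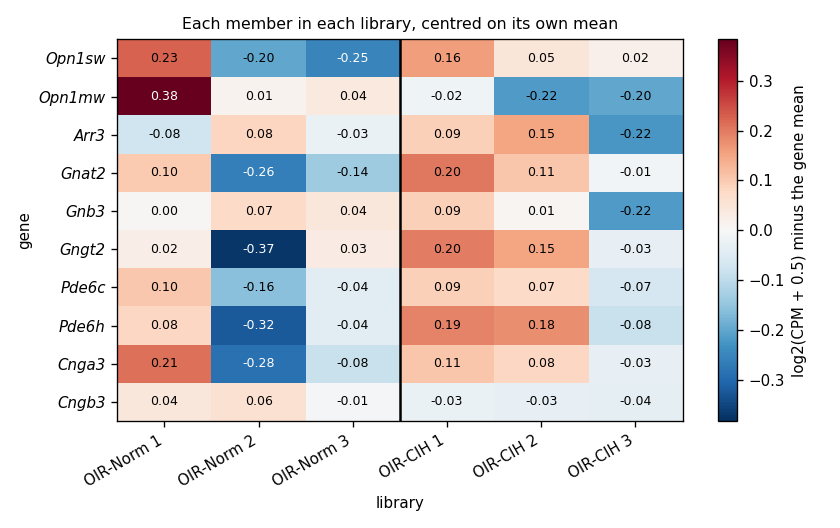
Each cone gene (rows) in each library (columns), as log2(CPM + 0.5) minus the gene's mean over the 6 libraries, red above and blue below that mean, with the value printed in each cell. OIR-Norm replicate 2 holds the lowest value of 5 members, while OIR-CIH replicate 1 and OIR-Norm replicate 1 each hold the highest value of 4.

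Much of the variation among the members was between libraries of 1 group. OIR-CIH replicate 1 and OIR-Norm replicate 1 were the highest library for 4 members each, and OIR-Norm replicate 2 was the lowest for 5. OIR-Norm replicate 2 was also the library with the most lens RNA, and a link between these was not tested. Over the 6 libraries, Pearson's r between a member and the mean profile of the 10, to which it contributes, was 0.98 for Pde6c, 0.92 for Cnga3, 0.91 for Pde6h and 0.90 for Gnat2. It was 0.37 for Opn1mw, 0.30 for Gnb3, 0.27 for Arr3 and -0.18 for Cngb3. The 5 genes outside the set that followed the mean profile most closely among 14800 compared were Arpp19 (r = 0.99), Rad1 (r = 0.99), Slc26a8 (r = 0.98), Myl6 (r = 0.97) and BC051226 (r = 0.97). These values describe 6 points that share depth and composition, and the closest of so many genes are close by selection.

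Per kilobase of annotated exon sequence, the members spanned from Gnb3 at 207 and Opn1sw at 191 CPM per kb to Cngb3 at 5.78 and Cnga3 at 5.55 CPM per kb (means of 6 libraries). Opn1mw followed at 99.3, then Gnat2 at 65.7, Pde6c at 62.2, Arr3 at 53.1, Gngt2 at 49.4 and Pde6h at 25.7 CPM per kb. The ranges over libraries overlapped between neighbours in this order for Gnb3 and Opn1sw, for Gnat2 through Gngt2, and for Cngb3 and Cnga3. Other neighbours did not overlap. The place of Pde6h is uncertain because its annotated exons cover 7846 bases over transcripts of very different length.

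The 8 members other than the opsins were next compared with rod genes of the same role, in 9 pairs of log2 count ratios within a library. The groups overlapped in all 9. Gnb3 is also used by ON bipolar cells, so that its ratio does not compare cones with rods alone. Ratios to the rod counterpart differed by 0.15 for Gnat2 over Gnat1 and 0.08 for Gngt2 over Gngt1. They differed by -0.27 for Gnb3 over Gnb1, -0.18 for Arr3 over the rod arrestin Sag and -0.13 for Cngb3 over Cngb1. Leaving out 1 library moved these widely, from -0.41 to -0.16 for Gnb3, from -0.30 to -0.04 for Arr3 and from -0.18 to -0.05 for Cngb3, with the values nearest 0 without OIR-Norm replicate 2 in each case. The differences for Pde6c over Pde6b, Pde6c over Pde6a, Pde6h over Pde6g and Cnga3 over Cnga1 were -0.10, -0.00, -0.01 and -0.01. The lowest exact permutation p was 0.2, or 0.675 after Benjamini-Hochberg adjustment over the 9.

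The 9 rod counterparts were all higher in OIR-CIH by point estimate (log2 fold changes from 0.04 to 0.19, median 0.13), but none was called and only Pde6b, 1 of the 9, had groups that did not overlap, beside 18.4% of all genes. Their summed level was lowest in OIR-Norm replicate 2, at 25643 CPM. It was 33742 and 29157 CPM in OIR-Norm replicates 1 and 3, and between 29800 and 34681 CPM in OIR-CIH.

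**Figure D4:**
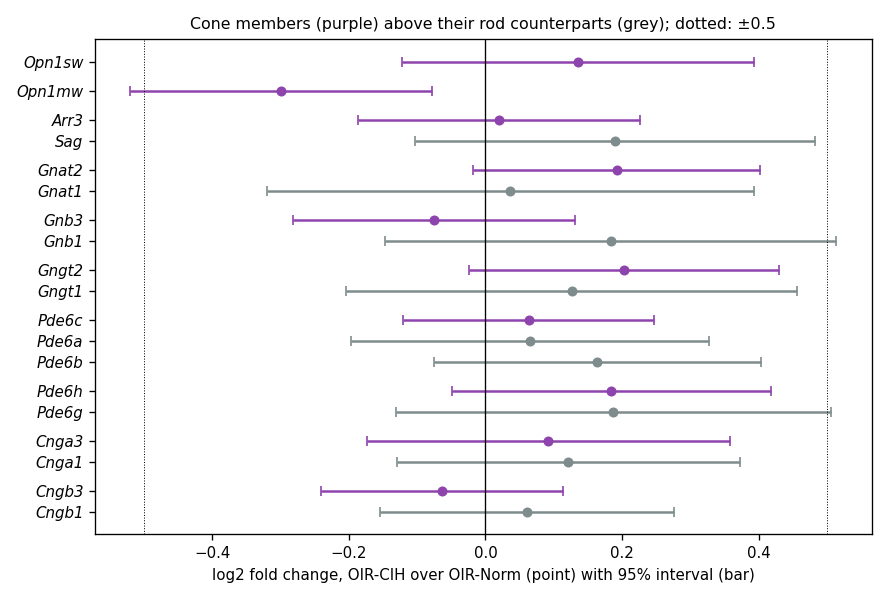
Log2 fold change of OIR-CIH over OIR-Norm with its 95% interval for each cone gene (purple) and the rod counterparts of the 8 members other than opsins (grey), with dotted lines at ±0.5. Opn1mw is at -0.30 with an interval that stays below 0, and every other interval includes 0.

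The wider set of photoreceptor genes was read in the same edgeR fit. Unadjusted p was under 0.05 for 0 of the 9 rod counterparts, 3 of the 14 shutoff and recovery genes, 2 of the 11 other cone-enriched genes, 2 of the 16 outer segment genes and 6 of the 12 retinoid genes, beside 13.2% of all genes. Of 14 genes that shut off or restore the light response, 7 were higher and 7 lower (median 0.03), and none was called. The lowest adjusted p values were those of Slc24a4, an exchanger that extrudes Ca2+ (log2 fold change -0.28, edgeR adjusted p = 0.234), Guca1a, an activator of guanylate cyclase (0.39, edgeR adjusted p = 0.252), Grk1, the opsin kinase (-0.22, edgeR adjusted p = 0.366), and Rgs9, which speeds transducin shutoff (-0.20, edgeR adjusted p = 0.404). The groups did not overlap for 3 of these 14, beside 18.4% of all genes.

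Of 19 regulators of cone and rod fate, 12 were higher and 7 lower (median 0.06), and none was called by edgeR. Unadjusted p was under 0.05 for 8 of 19, beside 13.2% of all genes, and the groups did not overlap for 7 of 19, beside 18.4%. Nr2e3, a nuclear receptor that represses cone genes in rods, was measured at 1599, 1533 and 1309 CPM in OIR-CIH and at 1085, 894 and 1057 CPM in OIR-Norm. All OIR-CIH libraries were above all OIR-Norm libraries, with a log2 fold change of 0.55 and an edgeR adjusted p of 0.0764, past the fold but not the p of a call. This depended on the tool: Nr2e3 was called in 5 of the 16 other fits, among them DESeq2 (log2 fold change 0.55, adjusted p = 9.29e-06) and limma-voom (adjusted p = 0.0335), and the adjusted p ranged up to 0.372 over all 16. Nrl, the rod determinant (0.34, edgeR adjusted p = 0.316), Otx2 (0.21, edgeR adjusted p = 0.309) and Pias3 (0.20, edgeR adjusted p = 0.308) were also higher by point estimate with groups apart. Rorb went the other way, lower in every OIR-CIH library (log2 fold change -0.21, edgeR adjusted p = 0.327). Thrb, whose receptor is required for Opn1mw expression, was at 126, 122 and 124 CPM against 120, 104.6 and 104 CPM. Thrb was higher in every OIR-CIH library (log2 fold change 0.18, edgeR adjusted p = 0.347), and its relation to Opn1mw was not tested.

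Among 11 other genes enriched in cones, of which Thrb, Rxrg and Sall3 are also in the list of regulators, 7 were higher and 4 lower (median 0.02), and none was called. Kcne2, a potassium channel subunit, was at 199, 173 and 151 CPM in OIR-CIH and at 145, 113 and 135 CPM in OIR-Norm. Its groups were apart, with a log2 fold change of 0.41 (edgeR unadjusted p = 0.00270, adjusted p = 0.179). Ccdc136 and Gulo had log2 fold changes of 0.12 and -0.12 (edgeR adjusted p = 0.469 and 0.665).

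Outer segment and cilium genes gave no calls either: 8 of the 16 tested were higher and 8 lower (median 0.03), led by Rpgr, a cilium protein (-0.37, edgeR adjusted p = 0.281), Pde6d (0.24, edgeR adjusted p = 0.370), Impg2 (-0.20, edgeR adjusted p = 0.433) and Rpgrip1 (-0.28, edgeR adjusted p = 0.436). Of 12 genes of retinoid handling, which returns chromophore to the opsins, 10 were higher (median 0.19) and none was called. Lrat, Rgr and Rpe65 were called in the fit that kept all genes counted at least once. Rgr and Stra6 were called without OIR-Norm replicate 1. The leading ones of the 12 were Rlbp1 (0.34, edgeR adjusted p = 0.164), Lrat (0.80, edgeR adjusted p = 0.173), Rgr (0.59, edgeR adjusted p = 0.215) and Rpe65 (0.65, edgeR adjusted p = 0.252). These are expressed in the pigment epithelium or Müller glia.

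**Figure D5:**
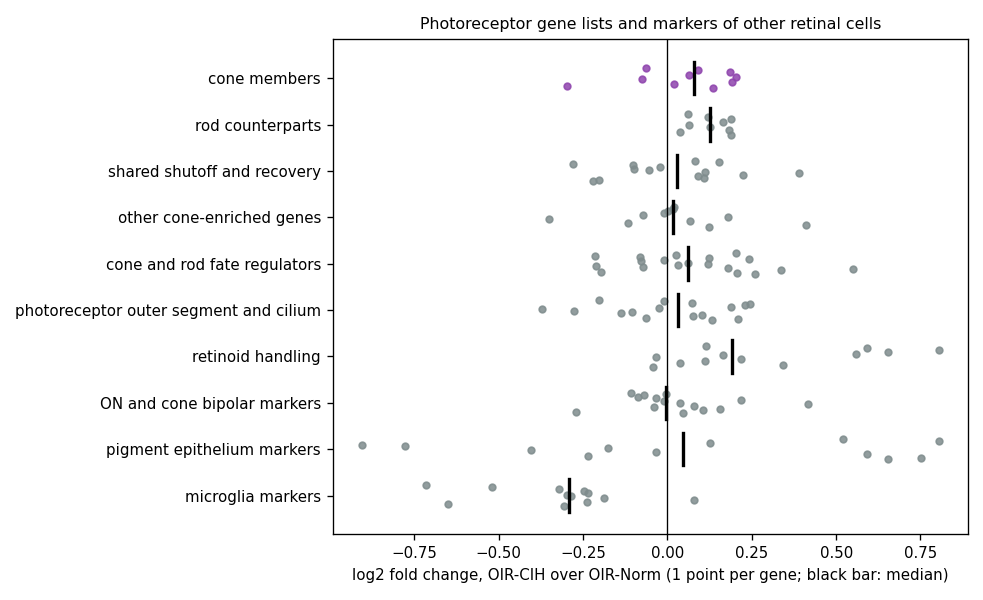
Log2 fold change of OIR-CIH over OIR-Norm for every tested gene of 10 lists (rows), 1 point per gene, with a black bar at each median. Cone members (purple) run from -0.30 to 0.20 around a median of 0.08, and microglia markers from -0.72 to 0.08 around a median of -0.29.

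Markers of other cells were read beside these results, with an unadjusted edgeR p under 0.05 for 6 of the 12 pigment epithelium, 9 of the 14 lens, 3 of the 15 bipolar, 4 of the 12 Müller glia and 6 of the 12 microglia markers, beside 13.2% of all genes. The 12 pigment epithelium markers summed to between 469 and 698 CPM in OIR-CIH and between 315 and 665 CPM in OIR-Norm; 6 were higher and 6 lower, none was called, and 1, Best1, had a mean under 1 CPM. Ttr had the lowest adjusted p of them (log2 fold change 0.75, edgeR adjusted p = 0.103). The 6 lower ones included Mlana (log2 fold change -0.91, edgeR adjusted p = 0.390) and Pmel (-0.78, edgeR adjusted p = 0.372). Lrat, Rgr and Rpe65 are also in the list of retinoid handling, so that the counts for these lists share genes. All 14 lens markers tested were lower in OIR-CIH by point estimate (median -2.05), led by Crygd (-2.93, edgeR adjusted p = 0.272). None had groups apart and none was called. Their summed level was 869 CPM in OIR-Norm replicate 2 and at most 170 CPM in any other library. Without OIR-Norm replicate 2 the log2 fold change of Crygd was 0.23 (edgeR adjusted p = 0.891), so that its sign rested on that library.

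Of 15 markers of ON and cone bipolar cells, the partners of cones, 7 were higher and 8 lower (median -0.00), and none was called. The lowest adjusted p values were those of Gng13 (0.42, edgeR adjusted p = 0.216), Trpm1 (-0.27, edgeR adjusted p = 0.288) and Scgn (0.22, edgeR adjusted p = 0.288). Of 12 Müller glia markers, 6 were higher and 6 lower (median 0.01); 1 was called, Gfap, which fell in OIR-CIH (log2 fold change -1.15, edgeR adjusted p = 0.000107). Of 12 microglia markers 11 were lower (median -0.29), with Mpeg1 called (-0.72, edgeR adjusted p = 0.0131; not called without OIR-CIH replicate 1 or without OIR-CIH replicate 2), and their summed level was between 120 and 137 CPM in OIR-CIH and between 149 and 167 CPM in OIR-Norm. The groups did not overlap for 4 of the 12 Müller glia and 6 of the 12 microglia markers, beside 18.4% of all genes. Any relation of these markers to the opsin ratio was not tested.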

How the data were processed

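Retinal RNA of 3 OIR-CIH and 3 OIR-Norm libraries was sequenced from stranded mRNA libraries. The authors used STAR 2.7.9a to align and count the reads of each gene and deposited raw counts, whole numbers without normalization, in 1 table; the strand column kept is not given in the sources used here, and the methods name an Ensembl reference while the processing notes name GRCm38, which may be another build. Groups came from the labels, which do not say that libraries are separate animals, so that p-values measure the spread between libraries, which may be technical.

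Counts of the 20021 genes with a total of at least 10 were scaled by TMM and tested in edgeR 4.0.16 (quasi-likelihood, R 4.3.3) with Benjamini-Hochberg adjustment over all of them. The thresholds, an adjusted p of 0.05 and an absolute log2 fold change of 0.5, are those of the study. Ratios within a library were compared by an exact two-sided permutation test, whose smallest p is 0.1. No 2 libraries of the same group agreed within sampling noise. The members and the lists were chosen with earlier results of these data known. Genes named outside the members are the rod counterparts, the called genes or at most the 4 with the lowest adjusted p of each list, and the 5 most alike in profile (mean of at least 1 CPM). Best1, Mlana, Pmel, Xist, Rxrg, Sall3, Rorb, Stra6, Calu and Abi3 lie outside this rule and were named after the values were seen. The design set 11 cone to rod pairs, of which 9 were used; 1 rod gene is not reported here. Exon lengths, overlaps and shared stretches are from GENCODE M21 by gene identifier, which is not the annotation used for counting. Alternatives were other scalings and filters, DESeq2 1.42.0, limma 3.58.1, a replicate block, a Y-linked covariate and leaving out each library.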

Additional observations from a re-analysis of the deposited data

How the results depend on the processing

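No cone gene was called in any of the 16 other fits, nor in the fit without a minimum fold change. The count of all genes called, 63, was 135 with DESeq2, 213 with every gene of at least 1 count tested, and between 35 (without OIR-CIH replicate 1) and 104 (without OIR-Norm replicate 3) when 1 library was left out; the cause was not tested. In the fit on all genes of at least 1 count, Nr2e3, Ttr, Cx3cr1 and 6 lens genes were also called. Without OIR-Norm replicate 1, Rgr, Stra6 and Ttr were called (edgeR adjusted p = 0.0187, 0.0210 and 0.00830). Cx3cr1 was called with DESeq2 (adjusted p = 0.00868) and without OIR-CIH replicate 3 (edgeR adjusted p = 0.0310). With 1 library left out, the difference in the Opn1sw to Opn1mw ratio stayed between 0.406 and 0.474, and the log2 fold change of Opn1mw was between -0.37 and -0.17.

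Values near 0 changed sign. The log2 fold change of Arr3 was -0.0104 with scaling by the total count only and -0.0357 with the Y-linked covariate. Leaving out 1 library, it ranged from -0.0545 to 0.123, that of Gnb3 from -0.145 to 0.006 and that of Cnga3 from -0.0197 to 0.233, and the log2 ratio of Pde6c over Pde6a ranged from -0.0544 to 0.0317, Pde6h over Pde6g from -0.146 to 0.103 and Cnga3 over Cnga1 from -0.0609 to 0.0906.

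Between libraries of the same replicate number, deviations from the group means correlated at 0.10, 0.10 and -0.18. These values do not settle whether the replicate numbers mark pairs or batches. With the replicate block 84 genes and no cone gene were called, and Nr2e3, Lrat, Rgr, Rpe65, Ttr and Crygs of the other lists were; the mean Opn1sw to Opn1mw difference was 0.44 and the sign-flip test gave an exact p of 0.25, the smallest that 3 pairs allow. The channel subunits had the fewest counts of the members, down to 508 for Cnga3 in OIR-Norm replicate 2.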
